A study of Mus musculus with 6 samples.

Results

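The genes described here encode the MHC class II antigen presentation machinery of the mouse. They comprise 9 genes chosen by symbol from the 25572 rows of a deposited expression table: the class II chains H2-Aa, H2-Ab1 and H2-Eb1, the chains of the peptide-loading molecules H2-DM (H2-DMa and H2-DMb1) and H2-O (H2-Oa and H2-Ob), the invariant chain gene Cd74, and the transactivator gene Ciita. RNA sequencing was done on hind limb skeletal muscle of 3 mice that lack histidine decarboxylase, labelled HDCKO and given as Hdc-/- in the protocol, and of 3 wild-type mice (WT), with 1 library per mouse. All 6 mice carried the label for hind limb ischaemia (HLI), an operation that reduces blood flow to the limb, and all muscles were taken 3 days after it. The sources used here do not state the age, sex or strain of the mice, the muscle taken or the deleted exons, and unoperated muscle was not analysed here. The study asked how histamine production bears on macrophage state and vessel growth after ischaemia.

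MHC class II molecules display peptides from engulfed or endosomal proteins to CD4 T cells. An alpha and a beta chain assemble in the endoplasmic reticulum with the invariant chain CD74, which blocks the peptide groove and directs the complex to endosomes. There, proteases trim the invariant chain to a short fragment, H2-DM exchanges that fragment for other peptides, and H2-O, found mainly in B cells, restrains H2-DM. CIITA does not bind DNA itself but is recruited to class II promoters by a complex of RFX, CREB and NF-Y factors. Dendritic cells, B cells and activated macrophages are the usual sources of class II in a tissue, while skeletal muscle fibres normally make little.

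The factors that recruit CIITA bind promoter elements named the X and Y boxes. Promoters of 5 class II genes are shown because they hold such an arrangement and their genes were all highest in HDCKO mouse 3. RefSeq promoters of build GRCm38.p6, running from 250 bases before the gene start to 50 bases after it, were matched for 6 of the 9 genes. H2-Ab1, Cd74 and Ciita had no entry used here. The sequences that follow are windows of 85 bases, 5′ to 3′ on the gene's strand, in which capitals mark GNAAC, a match to part of the X box, and ATTGG, the reverse complement of the CCAAT core of the Y box.
H2-Aa (chr17:34287847-34287931, minus strand): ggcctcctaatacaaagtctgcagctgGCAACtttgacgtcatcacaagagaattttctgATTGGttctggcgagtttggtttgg
H2-Eb1 (chr17:34305748-34305832, plus strand): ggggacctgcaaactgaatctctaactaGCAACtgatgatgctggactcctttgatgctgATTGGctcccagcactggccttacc
H2-DMb1 (chr17:34153070-34153154, plus strand): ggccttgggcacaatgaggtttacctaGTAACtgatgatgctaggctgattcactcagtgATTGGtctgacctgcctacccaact
H2-Oa (chr17:34092276-34092360, plus strand): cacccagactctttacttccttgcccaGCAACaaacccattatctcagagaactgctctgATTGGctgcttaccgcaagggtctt
H2-Ob (chr17:34238788-34238872, plus strand): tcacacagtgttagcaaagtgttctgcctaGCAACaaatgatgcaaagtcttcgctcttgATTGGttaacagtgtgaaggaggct

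In these 5 promoters GNAAC preceded ATTGG by 30 to 33 bases, counted from start to start, and ATTGG began 43 to 61 bases before the annotated gene start. The arrangement was searched as GNAAC followed on the same strand by ATTGG at 20 to 40 bases, a form chosen after these promoters had been read. Of 32851 promoters in the table, 3.51% held it on either strand and 1.74% on the gene's own strand. CCAAT alone, on either strand, was in 37.41% of all promoters. H2-DMa has 2 annotated starts in the table, and neither of its promoters held the paired arrangement, nor did that of H2-DMb2, a near copy of H2-DMb1 that was also highest in HDCKO mouse 3. A longer X box pattern was also searched, on either strand, and was in 0.75% of all promoters. Of the 5 promoters shown, those of H2-DMb1 and H2-Ob held it, and those of H2-Aa, H2-Eb1 and H2-Oa did not. Among class I genes, the promoter of H2-D1 held it, and those of H2-K1 and B2m did not. These matches describe letters in a window and do not show binding.

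H2-Eb1 and Cd74 narrowly passed as higher in HDCKO muscle, and the 3 HDCKO libraries differed widely. Both calls were lost with no expression filter. They were also lost when HDCKO mouse 2, HDCKO mouse 3 or any WT mouse was left out. HDCKO mouse 3 had the highest value of all 6 libraries for 9 of the 9 genes, and HDCKO mouse 2 ranked next for 8 of them, while HDCKO mouse 1 lay near or below the WT libraries. H2-Aa narrowly missed the test, H2-Ab1 and the other genes of the set did not pass it, and none passed as lower. Values are FPKM, which scale sequenced fragments by gene length and library size. A log2 change is HDCKO minus WT on the log2(FPKM + 0.5) scale, and a gene passed at an adjusted p under 0.05 with limma's moderated test over the 13288 genes that averaged 0.5 FPKM or more.

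H2-Aa encodes the alpha chain of the I-A class II molecule. Its level was 9.43, 50.1 and 124 FPKM in HDCKO mice 1, 2 and 3, against 8.05, 4.52 and 8.92 FPKM in WT mice 1, 2 and 3. The groups did not overlap, although HDCKO mouse 1 lay only just above the highest WT mouse. The means were 61.3 ± 58.2 FPKM in HDCKO and 7.16 ± 2.33 FPKM in WT (SD, n = 3 each), and the log2 change of 2.43 (SE 0.89) had a limma adjusted p of 0.0545.

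H2-Ab1, the beta chain that pairs with H2-Aa, had 7.21, 39.5 and 83.4 FPKM in HDCKO mice 1, 2 and 3 and 9.82, 6.21 and 9.18 FPKM in WT mice 1, 2 and 3. Here HDCKO mouse 1 fell within the WT range, so the groups overlapped. The log2 change was 1.76 (SE 0.84, limma adjusted p = 0.110), with a 95% interval from -0.28 to 3.79.

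H2-Eb1 encodes the beta chain of the I-E molecule, whose alpha chain gene H2-Ea is inactive in some mouse haplotypes and was not matched in the table. H2-Eb1 had 8.25, 36.7 and 79.6 FPKM in HDCKO mice 1, 2 and 3 and 6.96, 3.50 and 7.14 FPKM in WT mice 1, 2 and 3. All HDCKO values lay above all WT values, and the log2 change of 2.28 passed the test (SE 0.80, limma adjusted p = 0.0469).

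Cd74, the invariant chain, was the most abundant gene of the set in every library. It had 36.8, 204 and 414 FPKM in HDCKO mice 1, 2 and 3 and 27.9, 20.9 and 33.8 FPKM in WT mice 1, 2 and 3. The groups did not overlap, and the log2 change was 2.42 (SE 0.85, limma adjusted p = 0.0476). Relative to the WT mean, Cd74 stood at 1.34-fold in HDCKO mouse 1 and 7.42-fold in HDCKO mouse 2.

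**Figure D1:**
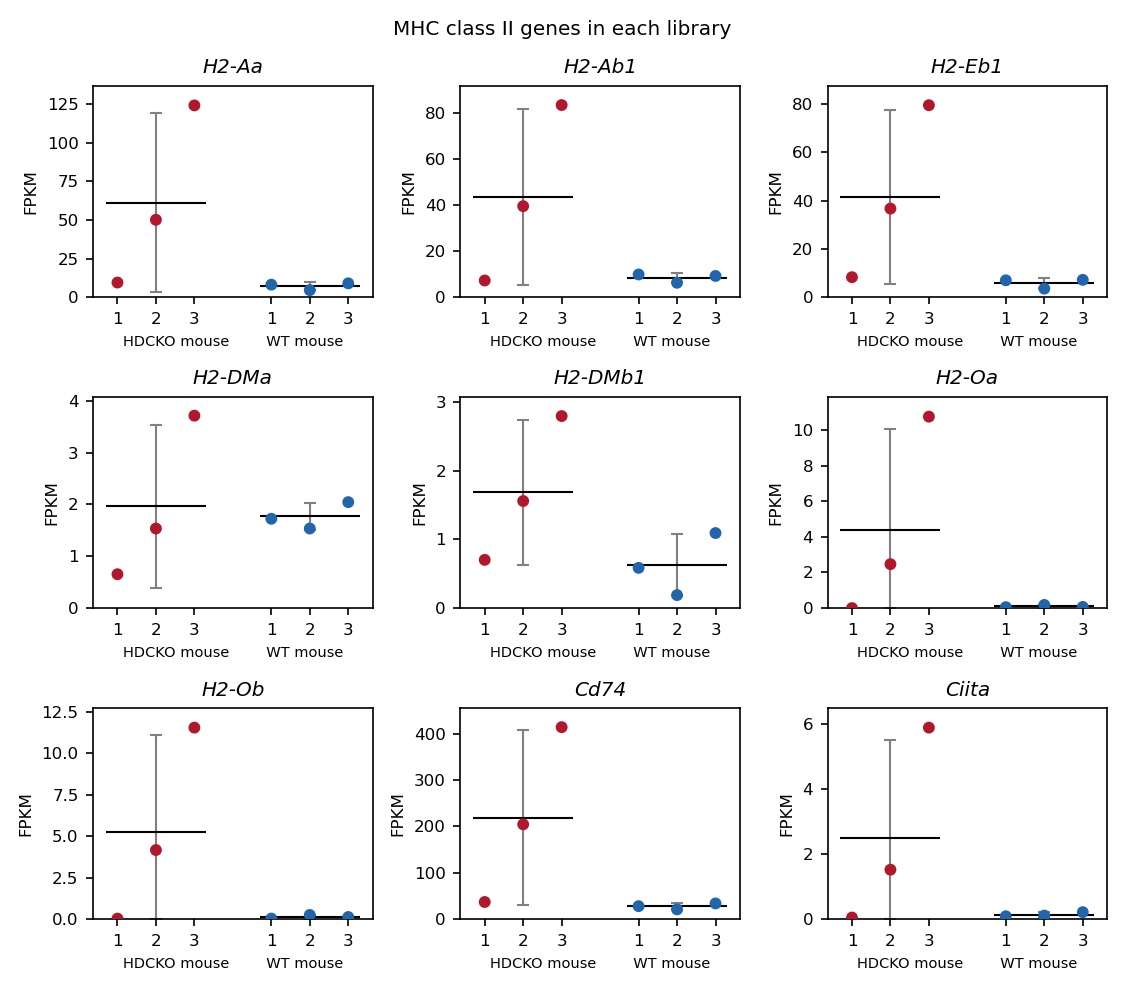
FPKM of the 9 class II genes (vertical axes, 1 scale per panel, from 0) in the libraries of HDCKO mice 1 to 3 (red) and WT mice 1 to 3 (blue); black lines are group means and grey bars are SD over 3 mice, with the lower end stopped at 0. HDCKO mouse 3 is highest in each panel, and HDCKO mouse 1, at 36.8 FPKM for Cd74, is close to the highest WT library at 33.8 FPKM.

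H2-DMa, the alpha chain of H2-DM, had 0.653, 1.54 and 3.71 FPKM in HDCKO mice 1, 2 and 3 and 1.72, 1.53 and 2.04 FPKM in WT mice 1, 2 and 3, so that HDCKO libraries lay below, within and above the WT range. Its log2 change was -0.07 (SE 0.46, limma adjusted p = 0.896, 95% interval -1.19 to 1.04). The direction was not stable, since it turned positive, to 0.30, with median-of-ratios scaling.

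H2-DMb1, the beta chain of H2-DM, had 0.702, 1.56 and 2.79 FPKM in HDCKO mice 1, 2 and 3 and 0.585, 0.189 and 1.09 FPKM in WT mice 1, 2 and 3. The groups overlapped, and the log2 change of 0.92 did not pass (SE 0.46, limma adjusted p = 0.121). H2-DMb2, the neighbouring and near-identical beta chain gene, had 0.886, 12.9 and 32.1 FPKM in HDCKO mice 1, 2 and 3 and 1.62, 1.38 and 1.93 FPKM in WT mice 1, 2 and 3. Most beta chain signal in HDCKO mice 2 and 3 was thus assigned to H2-DMb2, with 8.30 and 11.5 times the FPKM of H2-DMb1, against 2.77, 7.28 and 1.77 times in WT mice 1, 2 and 3 and 1.26 times in HDCKO mouse 1. The sources do not say how reads shared by these copies were counted, so the split between them is uncertain.

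H2-O and Ciita were close to absent outside HDCKO mice 2 and 3. H2-Oa had 0, 2.47 and 10.8 FPKM in HDCKO mice 1, 2 and 3 and 0.0512, 0.176 and 0.0662 FPKM in WT mice 1, 2 and 3. These values correspond to 0, 89 and 495 fragments in HDCKO mice and 2, 8 and 3 fragments in WT mice, recovered from the steps of the FPKM values. The count of 0 in HDCKO mouse 1 allows a level of up to 0.0713 FPKM, counting error only. The log2 change of H2-Oa was 2.10 (SE 1.06, limma adjusted p = 0.125).

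H2-Ob had 0.0288, 4.16 and 11.5 FPKM in HDCKO mice 1, 2 and 3 and 0.0310, 0.249 and 0.125 FPKM in WT mice 1, 2 and 3. HDCKO mouse 1 held 3 fragments, as few as WT mouse 1, while HDCKO mouse 3 held 1316. The log2 change of H2-Ob was 2.30 (SE 1.08, limma adjusted p = 0.107).

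Ciita, the transactivator, had 0.0476, 1.52 and 5.89 FPKM in HDCKO mice 1, 2 and 3 and 0.0865, 0.108 and 0.212 FPKM in WT mice 1, 2 and 3. HDCKO mouse 1 was the lowest of the 6 libraries, and the log2 change of 1.60 did not pass (SE 0.84, limma adjusted p = 0.137). H2-Oa, H2-Ob and Ciita had WT means under 0.5 FPKM and entered the test only through the high HDCKO libraries.

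In all, 2 of the 9 genes passed as higher, against 17.8% of all genes tested, and 0 as lower, against 42.6% of all genes. The count of 2 is thus near the background share. At an unadjusted p under 0.05 with limma, 3 of the 9 were called, against 66.7% of all genes. The median log2 change over the 9 genes was 2.10, the value of H2-Oa, and over all genes it was -0.50. Groups did not overlap, with HDCKO above, for 3 of the 9 genes, where the same held for 21.2% of all genes, and with HDCKO below for 0 of the 9, against 51.4%. Each HDCKO library was also set against the WT libraries without a test. HDCKO mouse 1 lay above all WT libraries for 3 of the 9 genes, against 23.9% of all genes. HDCKO mouse 2 did so for 8, against 26.8%, and HDCKO mouse 3 for 9, against 31.4%. The median and the counts of HDCKO mice 2 and 3 include H2-Oa, H2-Ob and Ciita, which had to differ to enter the test.

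The count of called genes turned on single libraries. Without HDCKO mouse 1, 8 of the 9 genes were higher (16.9% of all genes), with a median log2 change of 3.16 beside -0.37 for all genes. H2-DMa was the exception, at 0.38 (SE 0.33, limma adjusted p = 0.369). Cd74 then had a log2 change of 3.40 (SE 0.36, limma adjusted p = 0.0022), and H2-Eb1 had 3.16 (SE 0.44, limma adjusted p = 0.0047). The 8 and the median of 3.16 include H2-Oa, H2-Ob and Ciita, which had to differ to enter the test. Leaving out HDCKO mouse 2, HDCKO mouse 3, or any WT mouse gave 0 called genes of the 9. The limma adjusted p was then 0.0819 to 0.134 for H2-Eb1 and 0.0858 to 0.134 for Cd74.

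**Figure D2:**
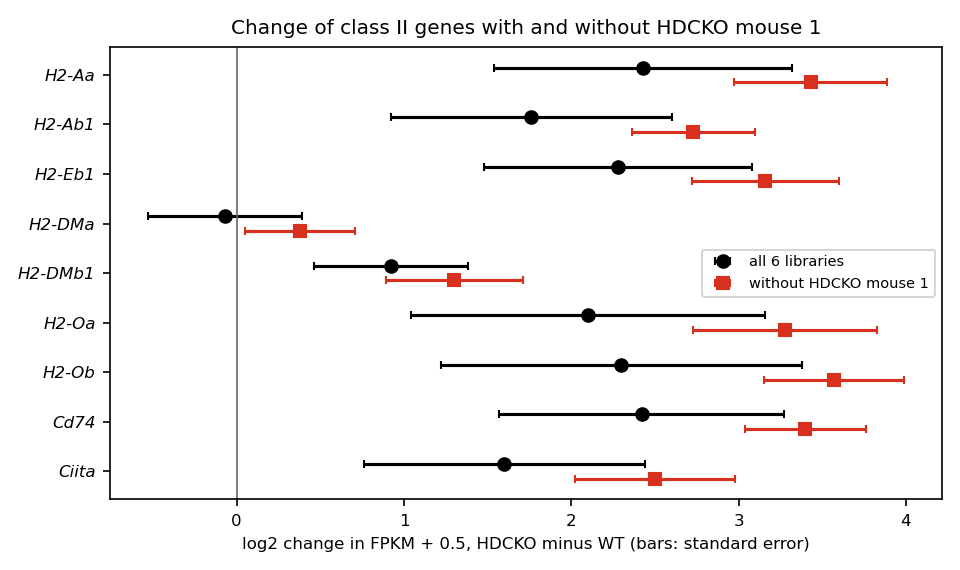
Log2 change of each class II gene, HDCKO minus WT, on the log2(FPKM + 0.5) scale with its standard error, over all 6 libraries (black circles) and without HDCKO mouse 1 (red squares). Without that mouse the standard error of Cd74 was 0.36, against 0.85 with it, and H2-DMa lay at 0.38, against -0.07.

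The libraries that were high in class II genes were also high in lymphocyte markers. All 8 B cell markers listed for this comparison were measured, and their summed level was 0.613, 72.1 and 212 FPKM in HDCKO mice 1, 2 and 3, against 1.17, 1.92 and 0.960 FPKM in WT mice 1, 2 and 3. Ms4a1, which encodes the B cell surface protein CD20, had 0.0293, 8.92 and 27.3 FPKM in HDCKO mice 1, 2 and 3 and 0.179, 0.0543 and 0.109 FPKM in WT mice 1, 2 and 3. HDCKO mouse 1 and the WT mice thus had few B cell transcripts, as they had little H2-Oa, H2-Ob and Ciita.

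T cell markers showed the same order of libraries, with a summed level of 0.750, 40.1 and 68.6 FPKM in HDCKO mice 1, 2 and 3 and 2.38, 2.76 and 1.51 FPKM in WT mice 1, 2 and 3 over 8 markers, with Cd8a listed at 0 in HDCKO mouse 1. Of the B cell markers 0 of 8 passed in either direction, and of the T cell markers Il2ra rose alone. Il2ra had a WT mean of 0.129 FPKM and entered the test only through high HDCKO libraries. Among all genes, 17.8% were called higher and 42.6% lower. In bulk RNA, more cells of a type and more RNA per cell cannot be told apart. The part of lymphocyte transcripts in the class II levels was not tested.

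Most dendritic cell markers were also high in HDCKO mouse 2, where 8 of 10 lay above the WT range, against 26.8% of all genes. In HDCKO mouse 3 all but Cd209a and Clec10a did so, against 31.4% of all genes. Itgax lay below the WT range in HDCKO mice 1 and 2 and above it in HDCKO mouse 3. It did not pass (log2 change -0.75, SE 0.62, limma adjusted p = 0.321). The summed level of 10 dendritic cell markers was 11.2, 49.4 and 45.8 FPKM in HDCKO mice 1, 2 and 3 and 44.7, 16.6 and 25.6 FPKM in WT mice 1, 2 and 3, so the groups overlapped. Clec10a, which macrophages also express, made up much of that sum, with 33.2 FPKM in HDCKO mouse 2 and 39.8 FPKM in WT mouse 1. Ccr7, a chemokine receptor of migrating dendritic cells and of T cells, had 0.0589, 7.003 and 12.7 FPKM in HDCKO mice 1, 2 and 3 and 0.333, 0.382 and 0.396 FPKM in WT mice 1, 2 and 3, the order seen in class II, and did not pass (limma adjusted p = 0.143). Flt3, the growth factor receptor of dendritic cells, had 0.0280, 0.370 and 0.584 FPKM in HDCKO mice and 0.136, 0.0822 and 0.182 FPKM in WT mice and was too low to be tested; HDCKO mice 2 and 3 lay above the WT range and HDCKO mouse 1 below it. Zbtb46, a transcription factor of classical dendritic cells that endothelium also expresses, had a log2 change of 0.25 (SE 0.16, limma adjusted p = 0.198), and passed as higher with median-of-ratios scaling (0.62, limma adjusted p = 0.0203). Clec9a and Cd207 were listed at 0 in HDCKO mouse 1, Cd207 also in WT mouse 3 and Xcr1 in WT mouse 2. Of the 6 tested markers 1 rose, Siglech of plasmacytoid dendritic cells, against 17.8% of all genes. Siglech and Ccr7, with WT means of 0.125 and 0.370 FPKM, entered the test only through high HDCKO libraries.

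Of 14 macrophage markers, 12 lay below the WT range in HDCKO mouse 1, against 68.5% of all genes, and 7 in HDCKO mouse 2, against 63.8%. In HDCKO mouse 3 these markers lay below, within and above the WT range, where 53.7% of all genes lay below it and 31.4% above. The summed level of the 14 was 165, 520 and 827 FPKM in HDCKO mice 1, 2 and 3 and 1349, 702 and 1311 FPKM in WT mice 1, 2 and 3. Of the 14, 5 fell and 1 rose, with a median log2 change of -0.91. For all genes the shares were 42.6% lower and 17.8% higher and the median was -0.50, so neither count exceeds the background share. The marker that rose, Timd4, had a WT mean of 0.191 FPKM and entered the test only through high HDCKO libraries. Csf1r, the receptor that macrophages need to survive, had a log2 change of -0.90 (SE 0.61, limma adjusted p = 0.234), and Adgre1, which encodes F4/80, had -1.72 (SE 0.83, limma adjusted p = 0.112).

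**Figure D3:**
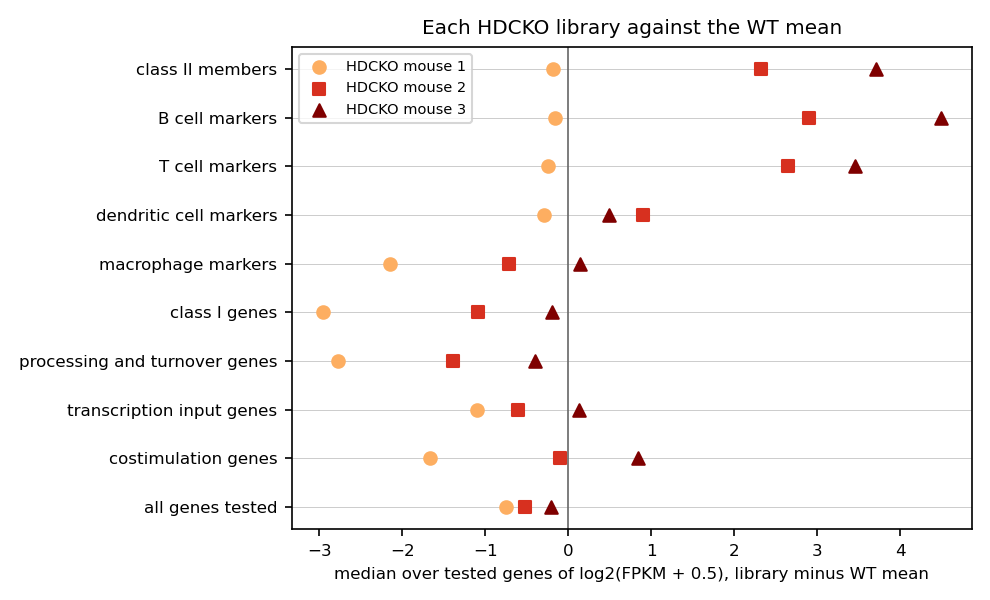
Median, over the tested genes of each list, of the log2(FPKM + 0.5) of HDCKO mouse 1 (circle), 2 (square) and 3 (triangle) minus the WT mean. For class II genes the medians were -0.18, 2.32 and 3.71, and for B cell markers -0.16, 2.90 and 4.49, while those of class I genes were -2.96, -1.09 and -0.20 and those of all genes -0.75, -0.52 and -0.21. The class II medians include H2-Oa, H2-Ob and Ciita, which, like most of the B cell markers, entered the test only through high HDCKO libraries.

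Within single libraries, H2-Aa, H2-Ab1, H2-Eb1 and Cd74 were high relative to most macrophage markers and to B2m in all 3 HDCKO mice, including mouse 1. In HDCKO mouse 1 the 4 genes themselves stood at only 0.858 to 1.41 times the WT mean. Csf1r stood there at 0.204 times and B2m at 0.119 times its WT mean. The ratios to Csf1r and B2m in that mouse thus rest on low denominators. Such ratios do not depend on library scaling; they were chosen after the values were seen and carry no test. H2-Aa stood to Csf1r at 0.772, 1.46 and 1.71 in HDCKO mice 1, 2 and 3 and at 0.131, 0.0956 and 0.125 in WT mice 1, 2 and 3. For 7 of the 9 genes the ratio to Csf1r was higher in every HDCKO library than in any WT library, against 17.3% of all genes, and the exceptions were H2-Oa and H2-Ob. Over H2-Aa, H2-Ab1, H2-Eb1 and Cd74, this held for 12 of 14 macrophage markers as the denominator. With Cx3cr1 it held for 2 of the 4 genes. With Timd4, which rose in HDCKO, it was reversed for all 4, as for H2-Aa, whose ratio was 13.2, 3.94 and 9.92 in HDCKO mice 1, 2 and 3 and 26.7, 54.7 and 47.2 in WT mice 1, 2 and 3. With the 12 markers where all 4 genes were higher, 7.31% to 91.3% of all genes were higher too. For some of these markers most genes thus did the same. The share was 3.025% with Cx3cr1 and 0.549% with Timd4.

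The same was seen with B2m, the light chain shared by class I molecules. Cd74 stood to B2m at 0.276, 0.394 and 0.493 in HDCKO mice 1, 2 and 3, against 0.0205, 0.0234 and 0.0303 in WT mice 1, 2 and 3. The ratio to B2m was higher without overlap in HDCKO for 7 of the 9 genes, where 37.4% of all genes were. B2m itself had 134, 519 and 840 FPKM in HDCKO mice 1, 2 and 3 and 1361, 893 and 1113 FPKM in WT mice 1, 2 and 3 (log2 change -1.51, SE 0.67, limma adjusted p = 0.0928).

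H2-Ab1 stood apart from the other classical genes in its proportions. H2-Aa stood to H2-Ab1 at 1.31, 1.27 and 1.49 in HDCKO mice 1, 2 and 3 and at 0.820, 0.727 and 0.972 in WT mice 1, 2 and 3. Cd74 stood to H2-Ab1 at 5.11, 5.18 and 4.97 in HDCKO mice and at 2.84, 3.36 and 3.68 in WT mice. Of the other 8 genes, H2-Aa, H2-Eb1 and Cd74 were higher relative to H2-Ab1 in every HDCKO library than in any WT library, against 3.28% of all genes. Ratios among H2-Aa, H2-Eb1 and Cd74 overlapped between the groups, as with Cd74 to H2-Aa at 3.91, 4.08 and 3.33 in HDCKO mice 1, 2 and 3 and 3.47, 4.63 and 3.79 in WT mice 1, 2 and 3. H2-Aa, H2-Ab1 and H2-Eb1 differ in sequence between mouse strains, and the strain of either group is not stated.

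Relative to H2-Ab1, H2-DMa went the other way. Its ratio to H2-Ab1 was 0.0905, 0.0389 and 0.0445 in HDCKO mice 1, 2 and 3, against 0.176, 0.247 and 0.223 in WT mice 1, 2 and 3. The share of all genes whose ratio to H2-Ab1 fell in this way was not counted. The fall is therefore not shown to be particular to H2-DMa. Relative to Csf1r, H2-DMa was higher in every HDCKO library, at 0.0446 to 0.0534 against 0.0279 to 0.0325 in WT, and likewise relative to B2m. The H2-DMa row has a further limit. The step between its values implies that the authors divided by a length of about 8325 bases, where the exons of H2-DMa cover 4331 bases in GENCODE vM39 and the gene overlaps Brd2 on the opposite strand. For H2-Aa the implied length was 1128 bases and for Cd74 it was 1415 bases, so the level of H2-DMa against other genes rests on that length, although its comparison between libraries does not. Brd2 fell in HDCKO (log2 change -0.76, SE 0.19, limma adjusted p = 0.0171) but did not pass with median-of-ratios scaling (-0.24, limma adjusted p = 0.150), and the part of its reads in the H2-DMa values was not tested.

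**Figure D4:**
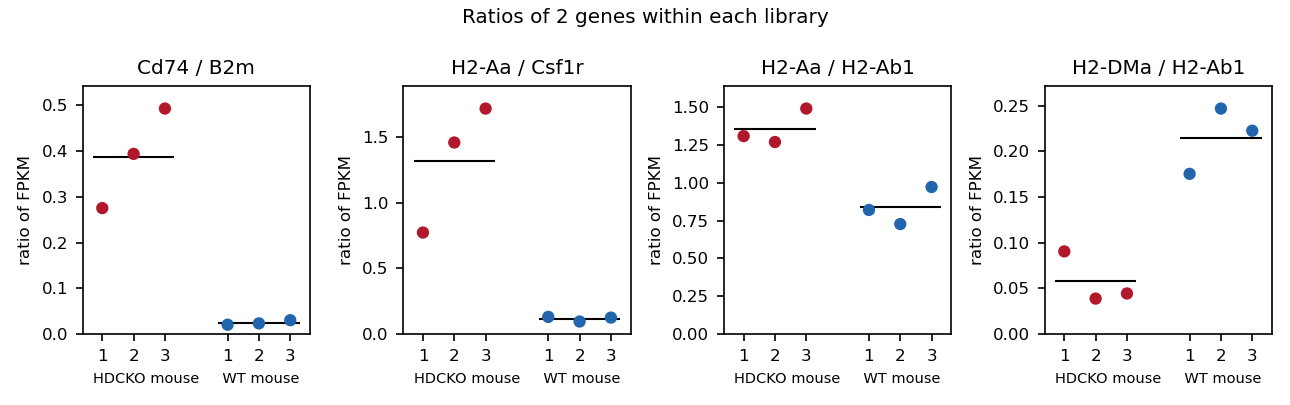
Ratios of FPKM within each library for Cd74 to B2m, H2-Aa to Csf1r, H2-Aa to H2-Ab1 and H2-DMa to H2-Ab1, in HDCKO mice 1 to 3 (red) and WT mice 1 to 3 (blue), with group means as black lines and axes from 0. The first 3 panels show all HDCKO libraries above all WT libraries, for example 0.276 to 0.493 against 0.0205 to 0.0303 for Cd74 to B2m, and the last shows them below.

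Genes that act on class II after its synthesis changed in both directions. Of 13 genes of endosomal processing and class II turnover, 8 fell and 2 rose, with a median log2 change of -1.28, against 42.6% lower, 17.8% higher and a median of -0.50 for all genes. The count that fell was 5 with median-of-ratios scaling, 1 without HDCKO mouse 2, WT mouse 1 or WT mouse 3, 2 without WT mouse 2 and 5 without HDCKO mouse 1. Ctss, the cathepsin that makes the late cuts in the invariant chain, had 13.7, 65.3 and 252 FPKM in HDCKO mice 1, 2 and 3 and 543, 341 and 447 FPKM in WT mice 1, 2 and 3. All HDCKO libraries lay below all WT libraries (log2 change -2.82, SE 0.98, limma adjusted p = 0.0464), but the call was lost without HDCKO mouse 2 or any WT mouse, with every scaling alternative, with no filter and with the replicate number as a block (limma adjusted p = 0.0512 to 0.118). Ctsl, a cathepsin that cuts the invariant chain in thymic epithelium, fell by 2.69 (SE 0.57, limma adjusted p = 0.0109), and Ctsh fell by 2.22 (SE 0.60, limma adjusted p = 0.0220).

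The members that rose were Ctsf, a cathepsin able to cut the invariant chain in macrophages, and Cd83. Ctsf had 16.2, 16.9 and 11.8 FPKM in HDCKO mice 1, 2 and 3 and 5.005, 3.11 and 5.07 FPKM in WT mice 1, 2 and 3 (log2 change 1.67, SE 0.24, limma adjusted p = 0.0033). Cd83, a membrane protein that protects class II from degradation, had 1.44, 5.22 and 13.9 FPKM in HDCKO mice and 0.336, 0.390 and 0.793 FPKM in WT mice (log2 change 2.46, SE 0.70, limma adjusted p = 0.0253), a call lost with no filter and without HDCKO mouse 2 or any WT mouse (limma adjusted p = 0.0519 to 0.0766). Marchf1, the ubiquitin ligase that marks class II for degradation, did not pass (log2 change -1.28, SE 0.69, limma adjusted p = 0.145), nor did Ifi30, a thiol reductase of endosomes (log2 change -0.75, SE 0.66, limma adjusted p = 0.347).

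Of 17 genes that act upstream of class II transcription, 16 were tested, 5 fell and 0 rose, with a median log2 change of -0.65, against 42.6% lower, 17.8% higher and a median of -0.50 for all genes, so neither count exceeds the background share. With median-of-ratios scaling 3 fell and 4 rose, and with a mouse left out 1 to 9 fell. Those that fell were Nfya (-1.28), Creb1 (-0.62), Jak1 (-0.64), Jak2 (-1.40) and the myeloid factor Spi1 (-3.32), and with median-of-ratios scaling Jak1 did not pass (-0.11, limma adjusted p = 0.449). Rfx5, the DNA-binding subunit of RFX, had 2.04, 2.62 and 4.92 FPKM in HDCKO mice 1, 2 and 3 and 2.49, 2.12 and 2.95 FPKM in WT mice (log2 change 0.22, SE 0.31, limma adjusted p = 0.545); it passed as higher with median-of-ratios scaling (log2 change 0.66, limma adjusted p = 0.0349). Ifng, whose product interferon gamma induces Ciita, was at most 0.112 FPKM in HDCKO and 0.0669 FPKM in WT and was not tested. Nlrc5, the class I counterpart of Ciita, had 0.239, 1.56 and 6.21 FPKM in HDCKO mice 1, 2 and 3 and 4.72, 4.07 and 5.08 FPKM in WT mice (log2 change -1.24, SE 0.75, limma adjusted p = 0.190).

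Of 8 costimulation genes, whose products give T cells a further signal, 5 were tested, 1 fell and 0 rose. For all genes the shares were 42.6% lower and 17.8% higher, so neither count exceeds the background share. Cd80 fell (log2 change -2.28, SE 0.32, limma adjusted p = 0.0030). Cd86, another ligand of CD28, had 0.760, 3.797 and 7.15 FPKM in HDCKO mice 1, 2 and 3 and 2.78, 4.32 and 3.57 FPKM in WT mice (log2 change -0.21, SE 0.64, limma adjusted p = 0.785). Its 95% interval ran from -1.77 to 1.34, and its direction turned to 0.21 with median-of-ratios scaling. Cd70 was not matched.

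Neighbours on chromosome 17 did not share one pattern. In GRCm39, 7 of the 9 genes lie on chromosome 17 between 34311314 (the start of H2-Oa) and 34535648 (the end of H2-Eb1), while Ciita is on chromosome 16 (10297923 to 10347694) and Cd74 on chromosome 18 (60936899 to 60945731). H2-Eb2, a further beta chain gene there, had 0, 15 and 103 fragments in HDCKO mice 1, 2 and 3 and 0 in each WT mouse. Tap1, a peptide transporter of class I encoded in the same region, had 1.93, 8.13 and 35.9 FPKM in HDCKO mice 1, 2 and 3 and 25.1, 25.5 and 24.3 FPKM in WT mice (log2 change -1.48, SE 0.91, limma adjusted p = 0.196). Psmb9, an immunoproteasome subunit gene beside it, had a log2 change of -1.21 (SE 0.78, limma adjusted p = 0.213).

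Likeness to the class II pattern was measured as the root mean square difference, over the 6 libraries, between centred log2 profiles of a gene and of the mean of H2-Aa, H2-Ab1, H2-Eb1 and Cd74. Among 11785 protein-coding genes averaging 1 FPKM or more, the closest were Fcer2a (0.245), Dnase1l3 (0.264), Cd8a (0.292), Bank1 (0.294) and Skap1 (0.312). The median gene lay at 1.66. These 5 genes had WT means of 0.0325 to 0.1985 FPKM and met that filter only through high HDCKO libraries. Their likeness was thus partly set by the filter. The nearest of these, Fcer2a, had 0.0898, 2.69 and 7.41 FPKM in HDCKO mice 1, 2 and 3 and 0.0744, 0.0384 and 0.0449 FPKM in WT mice. Within the set, H2-DMa was the least alike at 1.27.

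Facts of the libraries bear on all these values. Depth was estimated from FPKM steps at 29500000 to 37600000 fragments per library, and the 6 columns summed to 405521 to 454887 FPKM. Hdc, the targeted gene, was 2.07 ± 0.734 FPKM in HDCKO and 7.79 ± 0.346 FPKM in WT (SD, n = 3 each), a log2 change of -1.74 (limma adjusted p = 0.0033). Muscle fibre transcripts differed with the groups, as 6 fibre markers took 9.46% to 15.7% of the FPKM in HDCKO and 0.0883% to 0.334% in WT, and 5 of 5 tested neutrophil markers fell. The endothelial markers fell in 4 of 6 cases. Of all genes, 42.6% were called lower and 17.8% higher. The part of this shift in composition in the class II levels was not tested. Scaling moved the median log2 change of all genes, from -0.50 on the deposited values to -0.03 with median-of-ratios scaling, and 5 of the 9 class II genes were then called higher, against 26.6% of all genes. The count was 5 after quantile normalization (23.6% of all genes), 3 with mitochondrial and fibre genes left out of the library sum (27.2%) and 8 with sample weights (25.8%).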

How the data were processed

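Expression was measured by RNA sequencing in 6 libraries, 3 HDCKO and 3 WT. The authors deposited FPKM values, converted from counts per the labels; FastQC 0.11.9, HISAT2 2.1.0, HTSeq 0.11.2, STAR 2.7.11b, DESeq2 1.22.2 and GRCm39 are named in the submitters' processing notes, and the sources do not say which aligner led to the table. The test was limma-trend (limma 3.58.1, R 4.3.3) on log2(FPKM + 0.5), HDCKO against WT with no covariate, in genes averaging 0.5 FPKM or more, adjusted by Benjamini and Hochberg's method over 13288 genes. The pipeline was tested on simulated data. Whole fragments were recovered from FPKM steps in 95.1% of 5596 low genes within 0.02 fragments; these entered no test. Fragment counts carry counting error only. The p-values set the group difference against the spread between these mice, moderated over all genes tested. Labels do not say whether mice shared a litter or a batch, so the test cannot separate genotype from either. An exact two-sided permutation test of 3 against 3 cannot go below p = 0.1. The genes and lists, by textbook role, were chosen with earlier results of these data known. Named genes were the 9 members, up to 4 genes per further list with the smallest p, and Rfx5, Ifng, Nlrc5, Ctss, Ctsl, Ifi30, Marchf1, Cd83, Cd86, H2-Eb2 and H2-DMb2, with defining cell markers (1 of which is not reported here), 5 genes of like pattern and Hdc. Exceptions named after their values were seen were single markers of cell type lists (Siglech, Il2ra, Clec9a, Cd207, Xcr1, Ccr7, Clec10a, Cd8a, Cx3cr1, Timd4) and Creb1. Itgax and Cd209a were named in the same way. Alternatives covered the pseudocount, filter, scaling, weights, replicate block and each mouse left out.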

Additional observations from a re-analysis of the deposited data

How the results depend on the processing

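Directions of 8 of the 9 class II genes were kept under every alternative run for them; Ciita had no value without HDCKO mouse 3, where it was under the filter. The exception, H2-DMa (-0.07), turned to 0.30 with median-of-ratios scaling, 0.24 after quantile normalization and 0.27 with mitochondrial and fibre genes out of the sum, and lay between -0.56 and 0.38 with a mouse left out. The count of 2 class II genes called higher was 0 with no filter, 5 with median-of-ratios scaling, 5 after quantile normalization (23.6% of all genes), 8 with sample weights (25.8%), whose estimation stopped before it converged, and 0 to 8 with a mouse left out. Called genes numbered 5658 lower and 2362 higher; lower were 3458 with median-of-ratios scaling and 3030 with mitochondrial and fibre genes out of the sum, where 3619 were higher, and 2507 to 7288 with a mouse left out. Processing genes called lower, 8 in the reported fit, were 2 with no filter, 5 with median-of-ratios scaling or quantile normalization, 3 with mitochondrial and fibre genes out of the sum and 1 to 11 with a mouse left out; those higher were 1 with no filter and 1 to 2 with a mouse left out. Transcription genes lower, 5 as reported, were 3 with either scaling or with mitochondrial and fibre genes out of the sum, 11 with sample weights and 1 to 9 with a mouse left out; those higher, 0 as reported, were 4 with median-of-ratios scaling or quantile normalization, 3 with mitochondrial and fibre genes out of the sum and 1 with sample weights. Costimulation genes with sample weights were 2 lower and 1 higher, and with a mouse left out 1 to 2 lower and 0 to 1 higher. Cd86 (-0.21) turned to 0.21, 0.17, 0.17 and 0.18 with median-of-ratios scaling, quantile normalization, mitochondrial and fibre genes out of the sum and sample weights, and Icosl (-0.28) to 0.19, 0.17, 0.14 and 0.02. With a mouse left out Cd86 ran from -0.78 to 0.52, Icosl from -0.83 to 0.37, Cd40 from -0.09 to 1.45 and Rfx5 from -0.09 to 0.45. The cause of these changes was not tested. Same-numbered HDCKO and WT libraries deviated together with correlations of 0.122, 0.067 and 0.138, so the numbers were not taken as pairs; with the number as a replicate block, 2 class II genes were called higher, 2081 genes in all were higher and 5089 lower. Values under about 0.1 FPKM rest on few fragments.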
